A study of Mus musculus with 6 samples.

Results

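Small leucine-rich proteoglycans and tendon genes were followed through mouse skeletal muscle as a group of 10 genes: Chad, Kera, Fmod, Tnmd, Dcn, Bgn, Lum, Ogn, Prelp and Aspn. The members were chosen by their measured values, since Chad, Kera, Fmod and Tnmd are low in the LDKO libraries. For that reason all comparisons of the members with LDKO are given as a description, with no test. All 10 were found by symbol in the deposited table of 53342 genes, and all 10 were among the 17257 genes tested. RNA was sequenced from skeletal muscle of male mice in 3 genotypes, with 2 libraries each. LDKO mice (Irs1L/L:Irs2L/L:CreAlb) have floxed Irs1 and Irs2, the insulin receptor substrate genes, and Cre under the albumin promoter, which acts in hepatocytes. LTKOFstL/L mice came from crossing LDKO with FstL/L mice, in which loxP sites enclose exons 2 to 5 of Fst, the gene of the secreted activin and myostatin antagonist follistatin. Control libraries are described as Loxp, and their alleles are not listed further. A high fat diet is entered for each of the 6 samples, whereas the series text names chow from week 5 to week 16, and which of these holds is not settled here. Both deletions are made in liver, so the muscle values of Irs1, Irs2 and Fst do not check the genotypes. Whether the paired libraries of a genotype came from separate animals is not stated, so p-values reflect the spread between these samples alone, which may be technical.

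Small leucine-rich proteoglycans are secreted proteins whose leucine-rich repeats form a curved core that binds collagen fibrils, and most carry chondroitin, dermatan or keratan sulfate chains. They set how collagen fibrils grow in width and how they are spaced, and several bind growth factors of the TGF-beta family. In muscle they are made mainly by connective tissue fibroblasts and, at the ends of the muscle, by tendon cells, rather than by the muscle fibres. Tenomodulin, encoded by Tnmd, is not a proteoglycan of this family but a membrane glycoprotein typical of mature tendon cells.

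The promoter windows of the 4 genes that define the group are shown as a description. These genes were chosen for low values in the same LDKO libraries, so their likeness over the libraries follows from that choice. Each window runs from 250 bases before to 50 bases after the RefSeq start on GRCm38.p6, all on the plus strand, at chr11:94564797-94565096 for Chad, chr10:97606955-97607254 for Kera, chr1:134037004-134037303 for Fmod and chrX:133850758-133851057 for Tnmd. Capitals mark the motifs searched on both strands: CANNTG, the E-box that factors such as scleraxis can bind, TATAAA, and CAGAC, a short element that SMAD proteins can bind.
Chad: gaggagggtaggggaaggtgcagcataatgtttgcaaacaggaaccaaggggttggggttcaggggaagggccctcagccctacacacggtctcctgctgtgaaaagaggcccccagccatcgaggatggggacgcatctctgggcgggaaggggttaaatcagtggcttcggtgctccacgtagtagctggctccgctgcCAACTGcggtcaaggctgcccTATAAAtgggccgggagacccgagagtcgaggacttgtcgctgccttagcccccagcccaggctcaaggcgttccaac
Kera: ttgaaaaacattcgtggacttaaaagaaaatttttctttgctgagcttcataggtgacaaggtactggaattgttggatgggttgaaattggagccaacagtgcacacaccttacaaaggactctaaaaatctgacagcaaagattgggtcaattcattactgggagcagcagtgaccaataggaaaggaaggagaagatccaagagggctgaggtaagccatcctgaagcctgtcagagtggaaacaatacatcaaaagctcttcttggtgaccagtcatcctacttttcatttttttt
Fmod: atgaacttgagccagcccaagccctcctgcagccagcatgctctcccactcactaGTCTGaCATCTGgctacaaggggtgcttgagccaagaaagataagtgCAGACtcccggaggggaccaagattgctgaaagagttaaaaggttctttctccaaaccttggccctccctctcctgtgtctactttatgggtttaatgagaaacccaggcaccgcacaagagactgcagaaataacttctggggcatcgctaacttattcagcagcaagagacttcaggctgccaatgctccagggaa
Tnmd: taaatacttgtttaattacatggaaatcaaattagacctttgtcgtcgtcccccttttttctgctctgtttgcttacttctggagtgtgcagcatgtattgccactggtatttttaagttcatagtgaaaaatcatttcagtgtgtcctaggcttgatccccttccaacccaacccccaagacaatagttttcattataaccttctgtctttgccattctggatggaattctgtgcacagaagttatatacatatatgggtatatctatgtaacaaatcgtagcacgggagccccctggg
The Chad window held CANNTG 49 bases before the start (position -49) and TATAAA at position -28. The Fmod window held CANNTG at -189 and CAGAC at -195 (read as gtctg) and at -148. The Kera and Tnmd windows held none of these motifs. The Kera window lies inside the Kera gene as GENCODE places it (97606879 to 97613692), so the bases before that start were not searched. Of the 10 members, 8 had a window in the RefSeq table, and 6 of those 8 held CANNTG, 3 TATAAA and 2 CAGAC. Over all 32851 windows of the same length the shares were 72.3%, 13.6% and 49.6%. A match describes the letters of a window and is not evidence of a bound site.

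Values in the deposited table are log2 expression with each gene centred on the median of the 6 libraries, so they compare libraries but not genes. Depth per library is unknown. Changes are differences between group means on the log2 scale, with the standard error (SE) that a limma fit gives after moderation. The words rose and fell are kept for genes whose Benjamini-Hochberg adjusted p over all tested genes is under 0.05. All 12 skeletal muscle fibre markers were above the floor in all 6 libraries and were tested, with median changes of 0.13 from Control to LTKOFstL/L and 0.09 from Control to LDKO. The Control libraries held high pancreatic acinar transcripts. The median of 29 acinar markers was 12.2 and 8.05 in Control, then 0.81 and −1.18 in LDKO, then −1.72 and −1.59 in LTKOFstL/L. The part of the acinar transcripts in the differences from Control, those of the members included, was not tested. The LDKO libraries appeared to differ in scaling. Inferred from low values, a single read was worth 1.81 and 1.76 scaled units in LDKO and 2.03 to 2.12 in the 4 others. This inference is limited, since only 57.2% to 69.5% of the low values fitted whole reads.

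For each of the 4 genes that define the group, both LDKO libraries lay below the 4 other libraries, and the LDKO means were 1.96-fold to 6.26-fold below Control. Chad (ENSMUSG00000039084, GRCm38 chromosome 11, 94565047 to 94569127) encodes chondroadherin, a leucine-rich protein of cartilage and tendon that binds collagen and a collagen-receptor integrin. Its centred log2 values were 0.28 and 0.57 in Control, −1.47 and −1.27 in LDKO, then 0.20 and −0.20 in LTKOFstL/L. The LDKO libraries were the lowest, with a gap of 1.07 to the nearest other. The mean was lower in LDKO than in Control by 1.79 on the log2 scale (SE 0.19), which is 3.46-fold, and higher in LTKOFstL/L than in LDKO by 1.37. Chad lies within Acsf2, a gene of the opposite strand (94557102 to 94601871) whose reads cannot be told apart from those of Chad unless counting used strand. Acsf2 stood at −0.0035 and 0.0035 in Control, −0.04 and 0.54 in LDKO, then 0.17 and −0.47 in LTKOFstL/L, with no low values in LDKO.

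Kera (ENSMUSG00000019932, chromosome 10, 97606879 to 97613692) encodes keratocan, the keratan sulfate proteoglycan of cornea and tendon, and had the widest range of the 10. It stood at −0.31 and 0.72 in Control, −1.92 and −2.96 in LDKO, then 1.09 and 0.31 in LTKOFstL/L. The LDKO libraries were 1.61 below the nearest other library, and the libraries of a group also lay far apart, with SDs of 0.73, 0.74 and 0.55. The LDKO mean was 6.26-fold below Control and 8.83-fold below LTKOFstL/L (log2 −2.65 and 3.14, SE 0.49). Leaving out 1 library at a time kept these changes between −3.17 and −2.13 and between 2.62 and 3.66.

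Fmod (ENSMUSG00000041559, chromosome 1, 134037254 to 134048277) encodes fibromodulin, which binds collagen fibrils and controls their assembly and crosslinking in tendon. Its values were 0.09 and 0.22 in Control, −0.68 and −0.95 in LDKO, then 0.20 and −0.09 in LTKOFstL/L, and the LDKO libraries lay 0.59 below the nearest other. The difference from Control was −0.97 (SE 0.17) in LDKO. Tnmd (ENSMUSG00000031250, chromosome X, 133850980 to 133865577), the tenomodulin gene, stood at 0.03 and −0.03 in Control, −1.06 and −1.35 in LDKO, then 0.63 and 0.43 in LTKOFstL/L. Here the 3 genotypes did not overlap, and both LTKOFstL/L libraries lay above both Control libraries. The LDKO mean was 2.31-fold below Control, and the LTKOFstL/L mean was 3.34-fold above LDKO. Over the 4 genes the median change was −1.50 in LDKO against Control and 1.55 in LTKOFstL/L against LDKO. With 1 library left out, the LDKO change stayed between −1.94 and −1.65 for Chad, −1.10 and −0.84 for Fmod, and −1.35 and −1.06 for Tnmd. Both comparisons share the LDKO libraries. In a bulk sample, fewer cells of a type and less RNA per cell cannot be told apart.

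**Figure D1:**
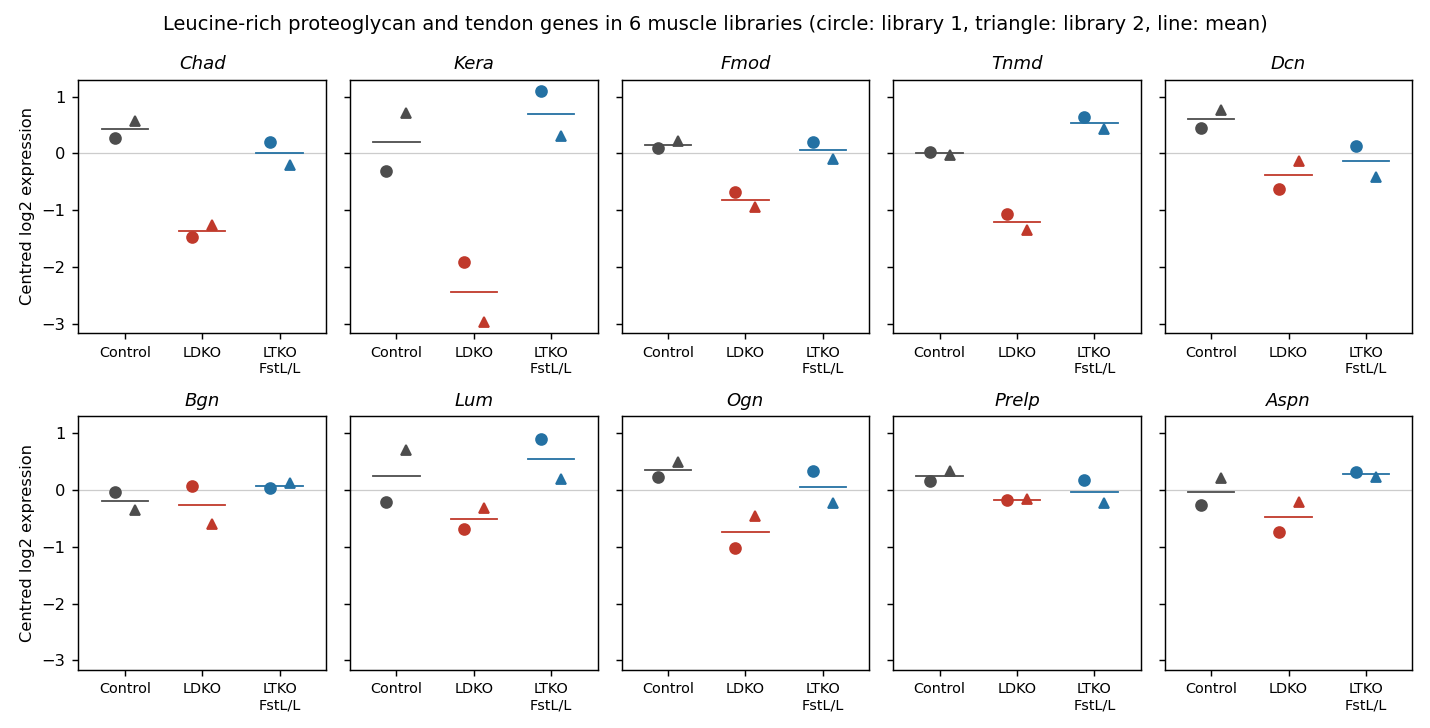
Centred log2 expression (y axis) of the 10 members in the 2 libraries of each genotype (x axis), with circles for library 1, triangles for library 2 and lines for group means. Chad, Kera, Fmod and Tnmd sit lowest in both LDKO libraries, whereas Bgn shows no such gap.

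Of the other 6 members, Lum and Ogn also had both LDKO libraries below the 4 others. Lum (ENSMUSG00000036446, chromosome 10, 97565128 to 97572703) encodes lumican, a keratan sulfate proteoglycan that limits fibril width. It stood at −0.20 and 0.70 in Control, −0.69 and −0.32 in LDKO, then 0.90 and 0.20 in LTKOFstL/L, and only 0.12 separated the LDKO libraries from the nearest other. Ogn (ENSMUSG00000021390, chromosome 13, 49608046 to 49624501) encodes osteoglycin, also called mimecan, a small proteoglycan of bone and connective tissue. Its values were 0.22 and 0.49 in Control, −1.02 and −0.46 in LDKO, then 0.34 and −0.22 in LTKOFstL/L, with a gap of 0.24. The LDKO means were below Control by −0.76 (SE 0.34) for Lum and −1.09 (SE 0.26) for Ogn as signed log2 differences. With 1 library left out they ran from −1.21 to −0.31 for Lum, the smaller without Control 2, and from −1.37 to −0.82 for Ogn. In all, 6 of the 10 members had this order, which 8.71% of all tested genes share, and all 10 had their lowest group mean in LDKO, as 33.4% of tested genes did. Since low LDKO values chose the group, nothing is read from these shares.

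For Dcn, Prelp and Aspn the LDKO libraries overlapped those of another genotype. Dcn (ENSMUSG00000019929, chromosome 10, 97479609 to 97518143) encodes decorin, which carries a single chondroitin or dermatan sulfate chain, coats collagen fibrils and binds TGF-beta and myostatin. It stood at 0.45 and 0.77 in Control, −0.62 and −0.14 in LDKO, then 0.14 and −0.42 in LTKOFstL/L. Decorin transcript was thus highest in the Control libraries, and the LDKO and LTKOFstL/L values interleaved. The difference was −0.99 (SE 0.25) for LDKO against Control and 0.24 for LTKOFstL/L against LDKO, and the second ranged from −0.04 to 0.51 with 1 library left out.

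Prelp (ENSMUSG00000041577, chromosome 1, 133910304 to 133921414), which encodes an arginine- and proline-rich family member that anchors basement membranes to collagen, stood at 0.16 and 0.34 in Control, −0.18 and −0.16 in LDKO, then 0.17 and −0.23 in LTKOFstL/L. Its LDKO mean differed from Control by −0.42 (SE 0.17). Aspn (ENSMUSG00000021388, chromosome 13, 49544443 to 49567565) encodes asporin, which lacks the sulfated chains and binds TGF-beta and collagen. Asporin transcript stood at −0.26 and 0.21 in Control, −0.73 and −0.21 in LDKO, then 0.33 and 0.23 in LTKOFstL/L. Here the LDKO and Control libraries overlapped, and both LTKOFstL/L libraries lay above the 4 others. Ogn and Aspn lie within Cenpp, a gene of the opposite strand (49464023 to 49652785), which did not pass in any comparison (changes 0.0053, −0.14 and 0.14, adjusted p 0.996, 0.939 and 0.822).

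Bgn (ENSMUSG00000031375, chromosome X, 73483602 to 73495933) had the smallest difference between LDKO and Control. It encodes biglycan, the closest relative of decorin, which carries chondroitin or dermatan sulfate chains. Its values were −0.03 and −0.35 in Control, 0.06 and −0.59 in LDKO, then 0.03 and 0.13 in LTKOFstL/L. The difference between LDKO and Control was −0.07 (SE 0.23), and it ran from −0.40 to 0.25 when 1 library was left out. The LDKO value was thus high in one library and low in the other. Decorin and biglycan, although related, stood at −0.99 and −0.07 in the same comparison.

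The difference between LTKOFstL/L and Control uses no LDKO value, and it was the one comparison in which the members were tested. The LDKO libraries still entered the estimate of the spread, which all 3 groups share. It addresses how muscle changes once hepatic Fst is deleted together with both receptor substrates. None of the 10 members passed in limma (0 of 10), 1 had an unadjusted p under 0.05, and 5 means were higher and 5 lower. Over all tested genes 358 passed, or 2.07%, and 15.1% had an unadjusted p under 0.05. The median change of the 10 members was 0.09, against -3.8e-06 over all tested genes. Dcn was the gene with the unadjusted p under 0.05, at −0.75 (SE 0.25, limma adjusted p = 0.212), and both its LTKOFstL/L libraries lay below both Control libraries. Its adjusted p ran from 0.0974 to 0.691 over the fits with 1 library left out. Without LDKO 1 or LDKO 2 it was 0.0995 and 0.0974, and 611 and 634 genes then passed, with 0 of the members among them.

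Among the 4 defining genes, Tnmd stood at 0.53 (SE 0.27, limma adjusted p = 0.411) and Chad at −0.42 (SE 0.19, adjusted p = 0.366). The libraries of the 2 genotypes did not overlap for either gene. Kera stood at 0.50 (SE 0.49, adjusted p = 0.701) and Fmod at −0.10 (SE 0.17, adjusted p = 0.842), with overlapping libraries. Of the remaining members Lum stood at 0.30, Aspn at 0.30 and Bgn at 0.27, and Ogn at −0.30 and Prelp at −0.28, with adjusted p from 0.513 to 0.748. In 5 of the 10 members the 2 genotypes overlapped, and in the other 5 they did not, while 49.7% of all tested genes did not overlap. With an SE between 0.17 and 0.49 these differences were not detectable with 2 libraries a group, which does not show that the genotypes act alike.

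**Figure D2:**
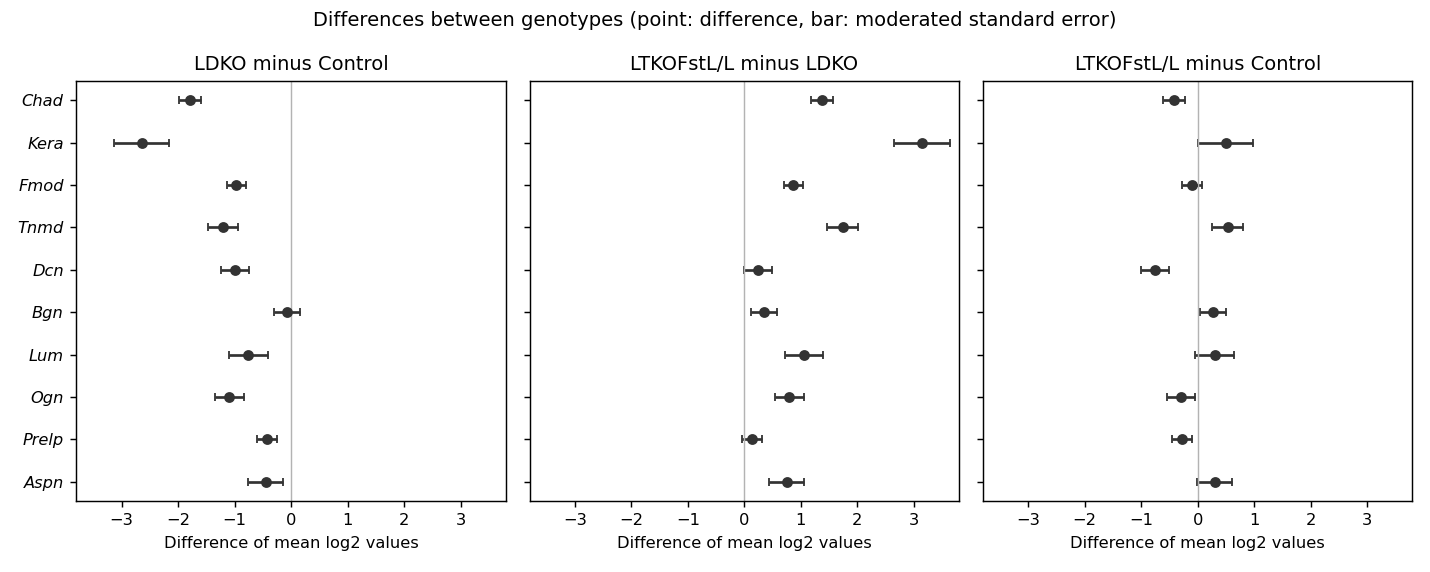
Difference of mean log2 values (x axis) for each member (y axis) in the 3 comparisons, with bars for the moderated SE. Differences run from −2.65 to −0.07 for LDKO minus Control, from 0.14 to 3.14 for LTKOFstL/L minus LDKO and from −0.75 to 0.53 for LTKOFstL/L minus Control.

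Several members are neighbours in the genome, and their values are set side by side here as a description. On chromosome 10, Dcn, Lum, Kera and Epyc lie in this order on the plus strand within 202.8 kb, with no other protein-coding gene between them. Dcn, Lum and Kera stood at −0.99, −0.76 and −2.65 in LDKO against Control, and at −0.75, 0.30 and 0.50 in LTKOFstL/L against Control. Epyc, the gene of the cartilage proteoglycan epiphycan, was above the floor in 1 library only and was not tested. On chromosome 13, Ecm2, Aspn, Omd and Ogn lie within 119.7 kb. Omd, which encodes the bone keratan sulfate proteoglycan osteomodulin, stood at 0.93 and 0.68 in Control, −0.27 and −0.03 in LDKO, then −0.68 and 0.03 in LTKOFstL/L. Both genotypes with liver Cre were below Control for Omd, by differences of −0.95 in LDKO (SE 0.32, limma adjusted p = 0.636) and −1.13 in LTKOFstL/L (SE 0.32, adjusted p = 0.151), and neither passed. Ogn, its neighbour, stood at −1.09 and −0.30. On chromosome 1, Optc, Prelp and Fmod lie within 151.1 kb, and Prelp and Fmod stood at −0.42 and −0.97 in LDKO against Control.

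**Figure D3:**
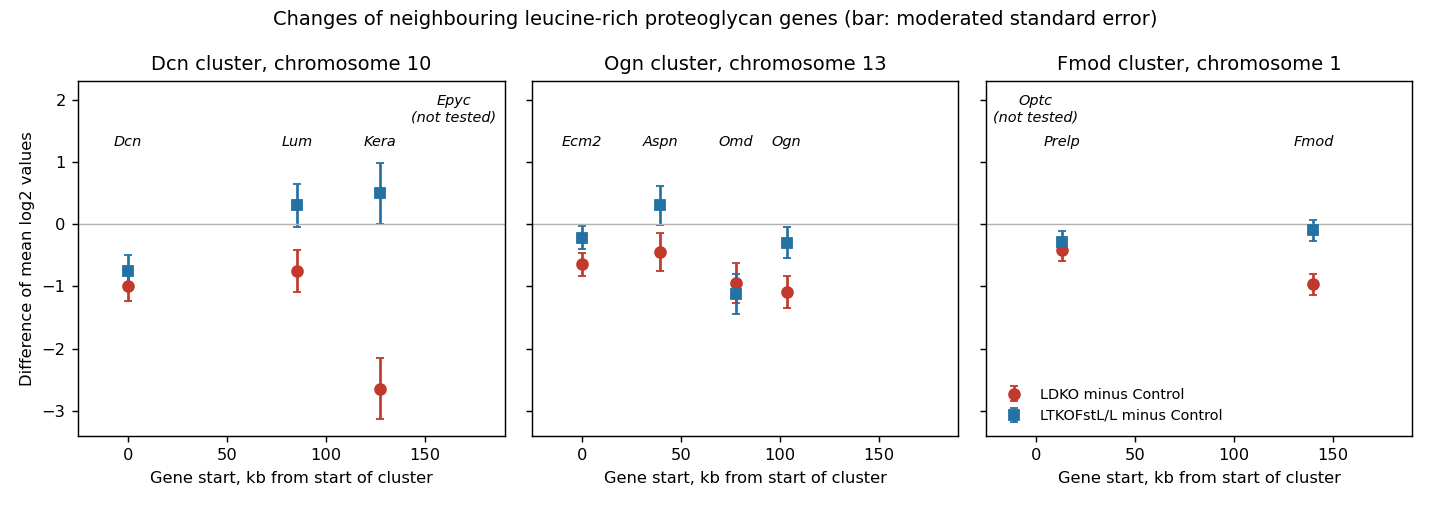
Difference of mean log2 values with its SE (y axis) against the distance of a gene's start from the start of its cluster in kb (x axis), for LDKO minus Control (circles) and LTKOFstL/L minus Control (squares). Kera at −2.65 sits next to Lum at −0.76, and Omd at −1.13 sits next to Ogn at −0.30 in LTKOFstL/L minus Control.

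The members followed one another over the 6 libraries to different degrees. Among the 45 pairs the Pearson correlation ran from −0.36 to 0.96 with a median of 0.76, and 41 pairs were above 0. Against the mean of the other 9 members, r was 0.97 for Fmod, 0.95 for Chad and 0.94 for Kera, but 0.62 for Dcn and 0.24 for Bgn. These are descriptions over 6 points that share their libraries, and the group was chosen on the values of 2 of them. Within a genotype, 8 of 10 members were higher in Control 2 than in Control 1, 9 of 10 in LTKOFstL/L 1 than in LTKOFstL/L 2, and 4 of 10 in LDKO 1 than in LDKO 2. Among the 6771 other tested genes with a range of at least 1, the 5 most like the mean of Chad, Kera, Fmod and Tnmd were Clec11a, Lhfpl2, S1pr3, Cma1 and Tgtp2, with r over the 6 libraries from 0.982 to 0.996. Clec11a encodes a secreted growth factor of bone marrow and skeleton, S1pr3 a receptor for sphingosine 1-phosphate, Cma1 the chymase of mast cells and Tgtp2 an interferon-inducible GTPase. Clec11a stood at −0.01 and 0.17 in Control, −0.57 and −0.84 in LDKO, then 0.27 and 0.01 in LTKOFstL/L.

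Related proteoglycans outside the group gave no call. Of 10 such genes 5 were tested, namely Omd, Ecm2, Podn, Tsku and Chadl, and 0 passed in any of the 3 limma comparisons. At an unadjusted p under 0.05 the counts were 1 for LTKOFstL/L against Control, 2 for LDKO against Control and 0 for LTKOFstL/L against LDKO. Their median changes were −0.21, −0.50 and 0.30 in this order. Of the 5, 4 had lower means in LDKO than in Control, and 4 had higher means in LTKOFstL/L than in LDKO. Over all tested genes 0.22% passed in LDKO against Control (0.0232% higher and 0.197% lower) and 6.86% had an unadjusted p under 0.05, and in LTKOFstL/L against LDKO 2.42% passed and 18.7% had an unadjusted p under 0.05. Of the 34 genes that fell in LDKO against Control, 25 were pancreatic acinar markers. Chadl, the chondroadherin-like gene, stood at 0.68 in LTKOFstL/L against Control (adjusted p = 0.531). Ecm2, which lies beside Aspn, stood at −0.65 in LDKO against Control (adjusted p = 0.555) and at 0.43 in LTKOFstL/L against LDKO (0.275), and Podn, which encodes podocan, at 0.57 in the latter (0.303).

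Of the 19 tested tendon genes outside the group, 13 had lower and 6 higher means in LDKO than in Control. Over the 19 tested, the median change was −0.20 in LDKO against Control, 0.06 in LTKOFstL/L against Control and 0.23 in LTKOFstL/L against LDKO. In LDKO against Control 0 passed in limma and 6 had an unadjusted p under 0.05. The shares over all tested genes were 0.22% and 6.86%. Scx, the gene of scleraxis, the transcription factor that marks tendon progenitors, stood at −0.34 and −0.16 in Control, 0.43 and −0.42 in LDKO, then 0.16 and 0.24 in LTKOFstL/L, so its LDKO libraries spanned the rest. Mkx, which encodes the tendon transcription factor mohawk, differed by −0.17 between LDKO and Control (SE 0.72, adjusted p = 0.972). Thbs4, a thrombospondin of tendon matrix, differed by −0.06 (SE 0.17, adjusted p = 0.961), Comp, which encodes cartilage oligomeric matrix protein, by −0.81 (SE 0.17, adjusted p = 0.294), Cilp2 by −0.45 (adjusted p = 0.847) and the minor fibrillar collagen gene Col11a1 by −0.81 (adjusted p = 0.636). The 6 tenocyte markers outside the group had a median of −0.31, with 5 of 6 means lower in LDKO, 0 passing and 2 with an unadjusted p under 0.05.

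Angptl7, which encodes a secreted angiopoietin-like protein found in tendon and eye, fell from Control to LTKOFstL/L by 1.79 (SE 0.21, limma adjusted p = 0.0112). Its values were 1.22 and 0.95 in Control, 0.03 and −0.03 in LDKO, then −0.42 and −0.98 in LTKOFstL/L, and the groups did not overlap. It was the 1 call among the 19 tendon genes in this comparison, where 10 had an unadjusted p under 0.05. The call was lost without Control 1 (−1.65, adjusted p = 0.114), without LTKOFstL/L 2 (−1.51, 0.0506), with a single variance prior (0.0845) and with a spline trend of the variance (0.248). Against Control, LDKO stood at −1.08 (adjusted p = 0.248). Egr1, the gene of a zinc finger factor that acts in tendon repair and in many immediate responses, rose from LDKO to LTKOFstL/L by 2.15 (SE 0.43, adjusted p = 0.0489). It stood at −0.37 and 0.12 in Control, −0.54 and −0.12 in LDKO, then 2.44 and 1.20 in LTKOFstL/L, and the call was lost with any 1 of the 6 libraries left out (changes from 1.53 to 2.77, adjusted p from 0.0606 to 0.249). It was lost as well with a single variance prior (0.149), a spline trend (0.242), no level filter (0.0818), strata by mean level (0.0763), only the groups compared (0.0609) and the replicate block (0.0664), and at a level filter of 8 it was not tested. Ptx4, the gene with the largest change of the list in LDKO against Control, stood at 1.53 (adjusted p = 0.822) with values of 0.04 and −3.22 in Control and −0.04 and −0.08 in LDKO.

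Genes of the fibrillar collagens, which these proteoglycans bind, had their highest median in the LTKOFstL/L libraries. Against Control, 3 of 24 tested genes of fibrillar collagens and their crosslinking enzymes rose and 0 fell, with a median of 0.36. Of all tested genes 0.834% rose and 1.24% fell. The 3 that rose were collagen genes. Means were higher for 21 of the 24 and lower for 3, none of which passed in limma. These were Lox (−1.06, adjusted p = 0.169), Pcolce2 (−0.70, 0.339) and Plod2 (−0.36, 0.826). Col3a1, the collagen of reticular fibrils, rose by 1.79 (SE 0.27, limma adjusted p = 0.0286). Col5a1, which nucleates fibrils, rose by 1.26 (SE 0.23, adjusted p = 0.0440), and Col1a1, the main fibril collagen of tendon and muscle, by 1.45 (SE 0.27, adjusted p = 0.0497). Col3a1 stood at −0.54 and −0.10 in Control, 0.10 and −0.70 in LDKO, then 1.50 and 1.43 in LTKOFstL/L. The LTKOFstL/L libraries lay above the 4 others. Leaving out either Control library or either LTKOFstL/L library ended each of the 3 calls. Without Control 1, Control 2, LTKOFstL/L 1 and LTKOFstL/L 2 in turn the changes were 1.56, 2.01, 1.75 and 1.82 for Col3a1 (adjusted p from 0.0653 to 0.185), 1.08, 1.45, 1.27 and 1.26 for Col5a1 (0.0975 to 0.240) and 1.31, 1.59, 1.28 and 1.62 for Col1a1 (0.131 to 0.262). A single variance prior, a spline trend and no level filter each ended all 3 (adjusted p from 0.0618 to 0.310). Strata by mean level (0.0528 and 0.0611) and the replicate block (0.0655 and 0.0541) ended Col5a1 and Col1a1. Col1a1 was also lost with median centring, without the acinar genes (0.0530) and with a pseudocount of 16 (0.0541).

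In LTKOFstL/L against LDKO 4 of the 24 rose and 0 fell, with a median of 0.59, while 1.11% of all tested genes rose and 1.3% fell. They were Col1a2 (1.33, SE 0.18, limma adjusted p = 0.0198), Col3a1 (1.77, SE 0.27, 0.0268), the collagen chaperone gene Serpinh1 (1.03, SE 0.18, 0.0399) and Col1a1 (1.50, SE 0.27, 0.0424). Without LTKOFstL/L 1 or LTKOFstL/L 2 all 4 were lost, with changes of 1.22 and 1.45 for Col1a2, 1.74 and 1.81 for Col3a1, 1.01 and 1.05 for Serpinh1, and 1.33 and 1.67 for Col1a1 (adjusted p from 0.0874 to 0.231). Without Control 1 or Control 2 Serpinh1 (adjusted p 0.0542 and 0.0539) and Col1a1 (0.0657 and 0.0651) were lost too, at changes of 1.03 and 1.50. A single variance prior and a spline trend ended all 4 (adjusted p from 0.104 to 0.213). No level filter (0.0683 and 0.0725) and a fit of only the groups compared (0.0553 and 0.0664) ended Serpinh1 and Col1a1, the replicate block ended Serpinh1 (0.0664), and strata by mean level ended Col1a1 (0.0517). In LDKO against Control 0 of 24 passed, 3 had an unadjusted p under 0.05 and the median was −0.02. The largest changes there were in Loxl4 (−1.39, adjusted p = 0.776) and Col11a1.

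Within each library the median of the 24 collagen and crosslinking genes was set against the median of the 10 members, as a description. The list stood at −0.09 and −0.09 in Control, 0.03 and −0.38 in LDKO, then 0.40 and 0.37 in LTKOFstL/L. The difference, list minus members, was −0.16 and −0.50 in Control, 0.75 and 0.15 in LDKO, then 0.14 and 0.36 in LTKOFstL/L. LDKO 1 was the highest library of this difference, where the members, chosen on low LDKO values, were low, and both LTKOFstL/L libraries were above both Control libraries. Adipocyte and interstitial fibroblast markers are set beside the collagens here. From Control to LTKOFstL/L, 10 of 10 adipocyte markers had higher means, with a median change of 1.49 (1 rose), and their median stood at −0.52 and −0.22 in Control, −0.96 and 0.14 in LDKO, then 1.99 and 0.73 in LTKOFstL/L. From LDKO to LTKOFstL/L, 13 of 13 interstitial fibroblast markers outside the group had higher means, with a median change of 0.45, and 2 rose, Col15a1 and the fibrillin gene Fbn1 (1.18, limma adjusted p = 0.0299). From Control to LTKOFstL/L these fibroblast markers had a median change of 0.04, with 7 means higher, 6 lower and 0 passing in limma. The part of adipocytes and fibroblasts in the collagen values was not tested.

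**Figure D4:**
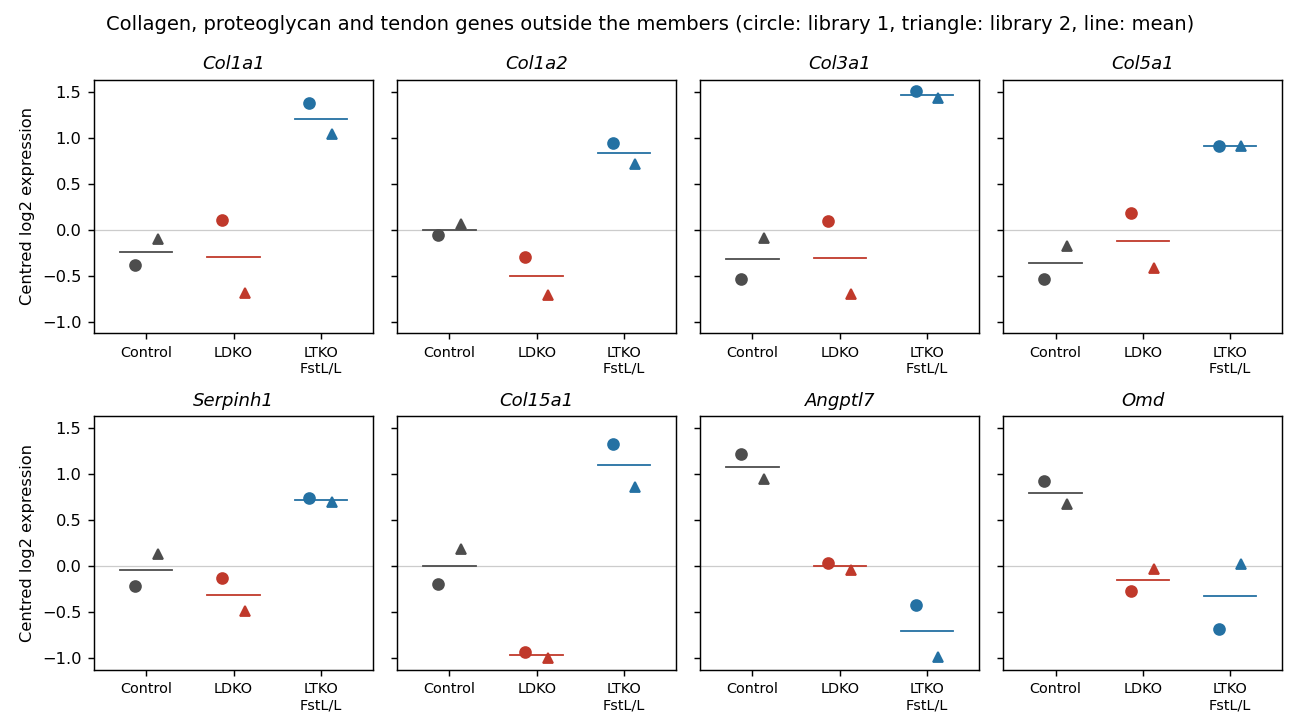
Centred log2 expression (y axis) of 8 genes outside the group in the 2 libraries of each genotype (x axis), with circles for library 1, triangles for library 2 and lines for group means. The collagen genes Col1a1, Col1a2, Col3a1, Col5a1 and Col15a1 sit highest in both LTKOFstL/L libraries, and Angptl7 sits highest in both Control libraries.

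The enzymes that build the sulfated chains of these proteoglycans gave 0 calls among 31 tested genes in each limma comparison, with 2, 6 and 5 genes at an unadjusted p under 0.05 for LTKOFstL/L against Control, LDKO against Control and LTKOFstL/L against LDKO. Their medians were 0.10, −0.29 and 0.43. Dsel, a relative of the dermatan sulfate epimerase, stood at 0.49 and 0.46 in Control, −2.79 and −1.08 in LDKO, then −0.04 and 0.04 in LTKOFstL/L. It was lowest in both LDKO libraries, at −2.41 against Control (SE 0.50, adjusted p = 0.253), and 1.93 higher in LTKOFstL/L than in LDKO (adjusted p = 0.0924). Xylt1, which adds the xylose that starts each chain, stood at 1.28 in LTKOFstL/L against Control (adjusted p = 0.101) and 1.45 against LDKO (0.0584). Csgalnact1, which starts chondroitin chains, stood at −1.52 in LTKOFstL/L against Control (adjusted p = 0.168), and the sulfotransferase gene Chst2 at −1.14 in LDKO against Control (0.691).

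Growth factors, receptors and proteases tied to these proteoglycans also gave 0 calls among 30 tested genes in each limma comparison, with 8, 4 and 11 at an unadjusted p under 0.05 and medians of −0.05, −0.09 and 0.10. Mmp3, the stromelysin that cleaves decorin, stood at 0.02 and −0.02 in Control, 1.92 and 0.32 in LDKO, then −1.61 and −1.62 in LTKOFstL/L. Its difference between LTKOFstL/L and LDKO was −2.73 (SE 0.77, adjusted p = 0.105). Ltbp2, a latent TGF-beta binding protein gene, stood at 1.18 in LTKOFstL/L against Control (adjusted p = 0.193) and 1.27 against LDKO (0.129). Adamts4, an aggrecan-cleaving protease gene, stood at −0.95 in LDKO against Control (adjusted p = 0.893).

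Among 16 tested genes of large and basement membrane proteoglycans, 2 rose from LDKO to LTKOFstL/L and 0 fell. Col15a1, a collagen with chondroitin sulfate chains at basement membranes, stood at −0.19 and 0.19 in Control, −0.92 and −0.998 in LDKO, then 1.33 and 0.87 in LTKOFstL/L, so the 3 genotypes did not overlap. It rose by 2.06 from LDKO to LTKOFstL/L (SE 0.30, limma adjusted p = 0.0189). The call was lost without LTKOFstL/L 1 (1.83, adjusted p = 0.151), without LTKOFstL/L 2 (2.29, 0.0829) and with a single variance prior. Srgn, the gene of serglycin, the granule proteoglycan of blood cells, rose by 0.84 (SE 0.16, adjusted p = 0.0477). Leaving out LTKOFstL/L 1 (0.75, adjusted p = 0.304), LTKOFstL/L 2 (0.94, 0.175), LDKO 2 (0.71, 0.0609), Control 1 (0.84, 0.0808) or Control 2 (0.84, 0.0806) ended that call. A single variance prior (0.154), a spline trend (0.178), no level filter (0.0803), strata by mean level (0.0550), only the groups compared (0.0828) and the replicate block (0.0743) ended it too. In the other comparisons 0 of 16 passed, with 4 genes at an unadjusted p under 0.05 in each. Sdc4, which encodes a cell surface syndecan, stood at −1.24 in LTKOFstL/L against Control (adjusted p = 0.0835), and Gpc3, a glypican gene, at −1.005 in LDKO against Control (0.553).

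Markers of other cell types were read beside the members. All 13 interstitial fibroblast markers outside the group were tested. For each of them the LDKO mean was below the Control mean, at a median change of −0.64, 0 passing in limma and 11 with an unadjusted p under 0.05. Their median was 0.07 and 0.19 in Control, −0.34 and −0.57 in LDKO, then 0.09 and 0.13 in LTKOFstL/L. The median of Chad, Kera, Fmod and Tnmd minus that of the fibroblast markers was −0.01 and 0.20 in Control, −0.93 and −0.74 in LDKO, then 0.33 and −0.02 in LTKOFstL/L. Low LDKO values chose these 4 genes, so the LDKO values of this difference follow from that choice. The other 6 members minus the same markers gave −0.32 and 0.31 in LDKO, on both sides of 0. All 10 Schwann cell markers likewise had LDKO means under those of Control. Their median change was −0.89, 0 passed in limma and 6 had an unadjusted p under 0.05, and Control 1 at 0.76 was their highest library. Macrophage and leukocyte markers had a median change of −0.46, with 10 of 12 means lower, 0 passing and 3 with an unadjusted p under 0.05. Smooth muscle and pericyte markers had a median change of −0.28 in LDKO against Control, with 7 of 10 means lower. Of these 10, 0 passed in limma and 3 had an unadjusted p under 0.05. Endothelial and skeletal muscle fibre markers had medians of 0.06 and 0.09 in LDKO against Control. Of the cartilage markers, Acan, Cnmd, Col2a1, Hapln1, Matn1 and Matn3 were too low to be tested, with Matn1 at the floor in all 6 libraries. The 3 tested had median changes of 0.07 in LDKO against Control, 0.69 in LTKOFstL/L against Control and 0.78 in LTKOFstL/L against LDKO. In each comparison 2 of these means were higher and 1 lower, and 0 passed in limma. Of the bone markers Ibsp and Mepe were at the floor in all 6 libraries. Among the 4 bone markers tested, Col1a1, which is also in the collagen list, was the 1 that rose in LTKOFstL/L, against Control and against LDKO, with list medians of 0.46 and 0.84. Whether the number of fibroblasts or tendon cells in the samples has a part in the values of the members was not tested.

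**Figure D5:**
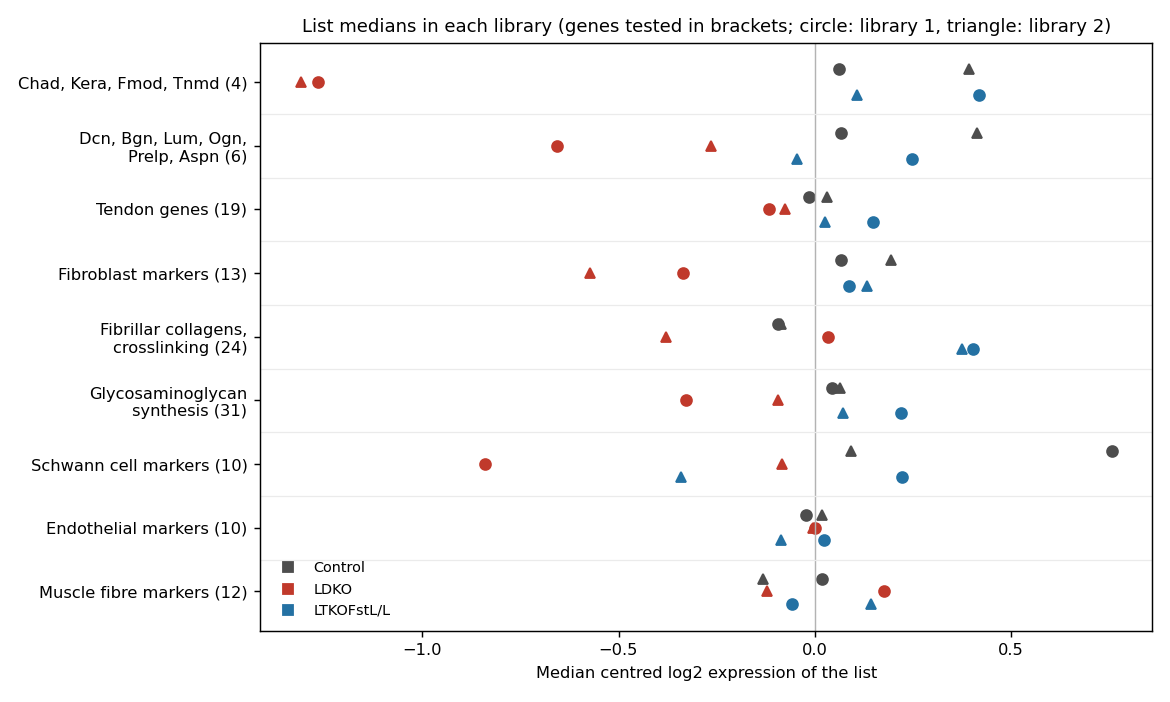
Median centred log2 expression (x axis) of each gene list (y axis, number of tested genes in brackets) in the 6 libraries, with circles for library 1 and triangles for library 2. The median of Chad, Kera, Fmod and Tnmd is −1.27 and −1.31 in LDKO, below the fibroblast markers at −0.34 and −0.57 and the tendon genes at −0.12 and −0.08, an order that the choice of these 4 genes on low LDKO values fixes.

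The authors' deposited tables of differential genes give their own calls. In the authors' deposited table for LDKO against Control, which lists 1378 genes, 4 of the 10 members appear, with log2 differences of −2.65 for Kera, −1.79 for Chad, −1.21 for Tnmd and −1.09 for Ogn. In the authors' deposited table for LTKOFstL/L against LDKO, which lists 2421 genes, 4 members appear, with 3.14 for Kera, 1.74 for Tnmd, 1.37 for Chad and 1.06 for Lum. The authors' deposited table for LTKOFstL/L against Control lists 2176 genes and 0 of the members. The whole series holds 53342 genes. Low LDKO values chose the members, so their counts in the lists that involve LDKO follow from that choice, and nothing is read from them. Every gene in these tables has an absolute log2 difference of at least 1 and a corrected p under 0.05, as read from their values. In LDKO against Control, Dcn at −0.99 and Fmod at −0.97 thus lie just outside by size.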

How the data were processed

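RNA-seq was made from skeletal muscle of 6 mouse samples, 2 in each of 3 groups, with TRI Reagent extraction and a SMARTer kit, per the labels' protocols. Per the submitters' processing notes the genome was mm10. Not given in the sources used here are the aligner, the counting and its strand setting, and the normalization. Log2 values make up the deposited gene table. Their pattern shows scaled reads cut at a floor of 1 and then centred by the authors on the median of the 6 libraries. Per the file headers, the authors' p-values are from an AC test, and here their lists served only to say which members they hold. Whole reads were recovered for only 57.2% to 69.5% of the low values (tolerance 0.001), so no count test was run and depth is unknown.

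From these values, rounding in the stored numbers gave a bracket for each gene's level. Genes with a log2 level of at least 4 in at least 2 libraries were tested with limma 3.58.1 in R 4.3.3, with 1 mean per group, 3 residual degrees of freedom and robust empirical Bayes in 3 strata set by each gene's lowest library. P-values are two-sided and adjusted over all 17257 genes by Benjamini-Hochberg, with a threshold of 0.05. The fit was tested on simulated data. Coordinates come from GENCODE M21, and promoter windows from RefSeq. The members and lists were chosen with earlier results of these data known. Named are all members, up to 4 genes that passed per list and comparison (otherwise the 2 largest changes), the 5 genes most like the defining 4, and marker genes beside a result. Other filters, priors, scalings, a pseudocount of 16, a threshold of 0.10, the replicate block and left-out libraries were the alternatives.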

Additional observations from a re-analysis of the deposited data

How the results depend on the processing

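No member passed in LTKOFstL/L against Control under any alternative run. At the level filter of 8, Tnmd and Aspn were not tested, so that run covers the other members only. With 1 library left out, Kera ran from −0.018 (without Control 1) to 1.01, Fmod from −0.25 to 0.048 (without LTKOFstL/L 2), and Lum from −0.15 (without Control 1) to 0.75, with −0.048 without LTKOFstL/L 1, so that each turned sign. With a pseudocount of 16, Tnmd stood at −0.97 in LDKO against Control and 1.44 in LTKOFstL/L against LDKO. Counts over all genes depended on the setting, and the cause was not tested. In the main fit, acinar markers made up 25 of the 38 calls in LDKO against Control and 27 of the 358 in LTKOFstL/L against Control. These called markers were all highest in Control, and the run without the acinar genes leaves them out. In LTKOFstL/L against Control, 358 genes passed, but 92 with no level filter, 23 with a single prior, 135 with a spline trend, 624 with only the groups compared, 622 at a threshold of 0.10, and 35 to 634 with 1 library left out. In LDKO against Control, 38 passed, but 2 with no level filter, 1 with a single prior, 19 with strata by mean level, 5 with only the groups compared, 12 without the acinar genes, 2 with the pseudocount, and 2 to 49 with 1 library left out. In LTKOFstL/L against LDKO, 417 passed, but 208 with no level filter, 50 with a single prior, 162 with a spline trend, 989 at a threshold of 0.10, and 33 to 690 with 1 library left out. The replicate block gave 243, 44 and 271 genes for the 3 comparisons in this order. Deviations of samples with the same number had r of 0.18, −0.04 and −0.18 between groups. With 2 libraries a group, these values do not settle whether equal numbers mark a pairing. With a level filter of 8, members below it gave no value. A group of 2 libraries limits what can be detected, and the depth of a library is unknown.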
